A study of Mus musculus with 6 samples.

Results

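Immediate early genes are transcribed within minutes of a stimulus, before new protein is made, and heat shock genes encode chaperones that are induced when proteins misfold. Described here are 8 immediate early genes (*Fos*, *Fosb*, *Jun*, *Junb*, *Egr1*, *Atf3*, *Ier2* and *Dusp1*) and 2 heat shock genes (*Hspa1a* and *Hspa1b*), in cells sorted from mouse mammary tumors. The 10 genes were found by symbol alone among the 14897 genes of the deposited table. All 10 passed the filter on low values, at least 1 RPKM in at least 2 libraries, which 12512 genes passed. RPKM is the number of reads scaled by the length of the gene and by the total reads of the library.

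The tumors arose in mice of the strain FVBN that carried the oncogene MMTV-Polyoma Virus Middle-T Antigen, which the MMTV promoter drives in mammary epithelium. Each of 2 tumors was digested with enzymes, stained and sorted into CD29hi CD61+ breast cancer stem cells (BCSCs, P1), ALDH+ BCSCs (P2) and the remaining bulk cells (P0, named non-CSC in the labels), and poly(A) RNA of each population was sequenced, giving 6 libraries. All groups share the strain, the oncogene and the digestion, each was sorted, and the labels give no other treatment, no age and no mouse for either tumor. The paper describes a cold antibody stain for CD29 and CD61 and a longer, warm incubation for ALDH. Whether each population received both is not stated, and the part of this in the results was not tested. The study asked how BCSCs differ in expression from bulk cells, and the question here is how these 10 genes differed between populations within each tumor.

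The FOS and JUN proteins pair to form AP-1, a transcription factor that growth signals through MAP kinases switch on. EGR1 and ATF3 are transcription factors of the same early response, and DUSP1 is a phosphatase that switches MAP kinases off again. HSPA1A and HSPA1B are the inducible forms of the chaperone HSP70, and their genes are activated by heat shock factor 1. Genes of both kinds are known to be induced when solid tissue is dissociated with enzymes and sorted. All 6 libraries came from digested and sorted cells, so no level here is that of undigested tissue.

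The libraries differed in depth and in how many genes they covered. The RPKM rested on 36207874, 48022362 and 23780208 reads in P0, P1 and P2 of tumor 1. In tumor 2 they rested on 19450306, 21587508 and 19044353 reads, so each library of tumor 1 was deeper than any of tumor 2. Genes without reads numbered 3290 in P0, 1947 in P1 and 3904 in P2 of tumor 1, against 446, 360 and 759 in tumor 2. Although deeper, each library of tumor 1 thus had more such genes than any library of tumor 2. The cause of this was not tested, and results are given for each tumor. The luminal epithelial gene *Epcam* was at 1220 to 2350 RPKM, and summed luminal markers were at 11496 to 22608 RPKM. *Aldh1a3*, which encodes an aldehyde dehydrogenase, was at 146 RPKM in P0 against 693 in P2 of tumor 1, and at 51.6 against 182 in tumor 2. The transcript of CD61, *Itgb3*, was at 17.6 RPKM in P0 against 13.2 in P1 of tumor 1, and at 9.29 against 13.9 in tumor 2, without a shared direction. Summed fibroblast markers, 9 genes, were at 1.68, 8.10 and 74.8 RPKM in P0, P1 and P2 of tumor 1, and at 6.33, 86.8 and 422 RPKM in tumor 2, and summed macrophage markers were at 3.19 to 31.7 RPKM. In P2 of tumor 1, 3 of the 9 fibroblast genes were at 0, *Pdgfrb* among them, and the highest was *Col1a2* at 23.4 RPKM. Of 8 listed granulocyte and mast cell genes 4 were in the table and summed to 26.1, 109 and 131 RPKM in P0, P1 and P2 of tumor 1, and to 135, 60.6 and 57.1 RPKM in tumor 2, with opposite directions in the tumors. Most of this sum outside P0 of tumor 1 was *S100a8*. In P2 against P0 *S100a8* differed by 3.70 in tumor 1 and -1.61 in tumor 2 on the log2 scale. The rest of the list did not share this pattern. On the same scale *Csf3r* differed by -1.23 and 0.15, *Kit* by 0.82 and 0.29 and *Cpa3* by 0.00 and -0.61. The 4 endothelial genes in the table summed to at most 1.29 RPKM, and the 2 lymphocyte genes to at most 2.23. A basal list of 8 genes summed to 301, 907 and 666 RPKM in P0, P1 and P2 of tumor 1, and to 346, 960 and 441 RPKM in tumor 2. Their part in the results below was not tested, and in sorted bulk RNA fewer cells of a type and less RNA per cell cannot be told apart.

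Promoter sequence from the RefSeq table (build GRCm38.p6) was searched for 8 of the 10 genes, all but *Egr1* and *Ier2*. Entries on a chromosome were left out by choice, so the absence of a gene here does not mean that it has no entry. The motif counts below do not cover *Egr1* or *Ier2*. The 250 bases before the transcription start, read 5′ to 3′ on the strand of the gene, are shown for *Fos* (chr12:85473640-85473889, plus strand), *Dusp1* (chr17:26508473-26508722, minus strand), *Jun* (chr4:95052223-95052472, minus strand), *Hspa1a* (chr17:34972157-34972406, minus strand) and *Hspa1b* (chr17:34959239-34959488, minus strand). They are examples of the AP-1 subunits, the phosphatase and the chaperone pair. Capitals mark matches to the cyclic AMP response element (CRE, TGACGTCA), to its core TGACG, or to a heat shock element (GAANNTTC or TTCNNGAA), on either strand.
Fos: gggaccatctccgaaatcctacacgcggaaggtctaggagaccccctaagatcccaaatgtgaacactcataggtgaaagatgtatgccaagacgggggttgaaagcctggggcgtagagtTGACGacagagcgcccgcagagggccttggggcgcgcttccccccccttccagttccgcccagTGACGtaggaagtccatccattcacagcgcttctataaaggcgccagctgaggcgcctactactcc
Dusp1: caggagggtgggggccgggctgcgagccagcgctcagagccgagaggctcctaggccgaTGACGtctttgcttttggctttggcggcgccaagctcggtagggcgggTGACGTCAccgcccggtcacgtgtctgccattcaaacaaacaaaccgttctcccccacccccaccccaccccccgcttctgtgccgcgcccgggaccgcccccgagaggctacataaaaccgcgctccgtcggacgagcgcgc
Jun: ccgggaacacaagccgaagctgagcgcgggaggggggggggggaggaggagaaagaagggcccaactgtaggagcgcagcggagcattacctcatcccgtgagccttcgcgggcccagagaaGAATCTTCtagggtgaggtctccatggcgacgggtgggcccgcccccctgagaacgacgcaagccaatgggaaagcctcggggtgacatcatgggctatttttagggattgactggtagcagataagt
Hspa1a: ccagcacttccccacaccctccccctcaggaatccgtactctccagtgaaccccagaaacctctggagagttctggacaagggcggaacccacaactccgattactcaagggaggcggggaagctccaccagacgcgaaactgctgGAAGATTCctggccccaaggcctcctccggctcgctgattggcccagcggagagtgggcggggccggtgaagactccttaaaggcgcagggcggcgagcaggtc
Hspa1b: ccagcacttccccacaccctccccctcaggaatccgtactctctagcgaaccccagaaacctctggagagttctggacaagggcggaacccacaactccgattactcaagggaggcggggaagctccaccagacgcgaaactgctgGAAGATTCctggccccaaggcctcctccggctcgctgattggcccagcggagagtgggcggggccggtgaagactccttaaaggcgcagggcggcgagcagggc
The *Fos* stretch holds the CRE core at 2 places, and that of *Dusp1* holds a full CRE with a further core upstream of it. The heat shock element lies at the same place in *Hspa1a* and *Hspa1b*, whose stretches differ at 3 of 250 bases.

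Seen over all 8 promoters, now with the 50 bases after the start included, the motifs were counted in each. The CRE core, which also forms part of the full CRE, was found in 5 of the 8 (*Fos*, *Fosb*, *Junb*, *Atf3* and *Dusp1*) and in 20.8% of the 32851 promoters of the table. The full CRE was found in 1, *Dusp1*, and in 1.79% of all. The heat shock element was found in 3, namely *Jun*, *Hspa1a* and *Hspa1b*, and in 15.1% of all. A CCAAT box (CCAAT, either strand) was found in 5 and in 37.4% of all, a GC box (GGGCGG, either strand) in 7 and in 35.7% of all, and TATAAA on the coding strand in 2 and in 8.32% of all. The CArG box of serum response factor (1.63% of all) and the AP-1 site TGANTCA (7.81% of all) were found in 0 of the 8, which says only that these letters are not in this window. A match is a description of the sequence and not a bound site.

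All 10 genes were abundant. Their levels ran from 21.3 RPKM (*Dusp1*, P2 of tumor 1) to 1438 RPKM (*Hspa1a*, P2 of tumor 2), where the median tested gene was at 7.95 to 9.39 RPKM depending on the library. In each library each of the 10 genes lay above at least 77.9% of the genes of the table, and 6 of them ranked among the top 1000 genes in all 6 libraries. *Hspa1a* reached rank 25. The values rest on 984 to 76632 reads per gene and library. *Hspa1a* and *Hspa1b* had the highest RPKM of the 10 in every library but P2 of tumor 1, where *Junb* led. The SD of log2(RPKM + 1) over the 6 libraries was above the median of all tested genes, 0.54, for 7 of the 10, and was 1.28 for *Hspa1a*, 1.22 for *Hspa1b* and 0.90 for *Dusp1* against 0.33 for *Fos*.

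**Figure D1:**
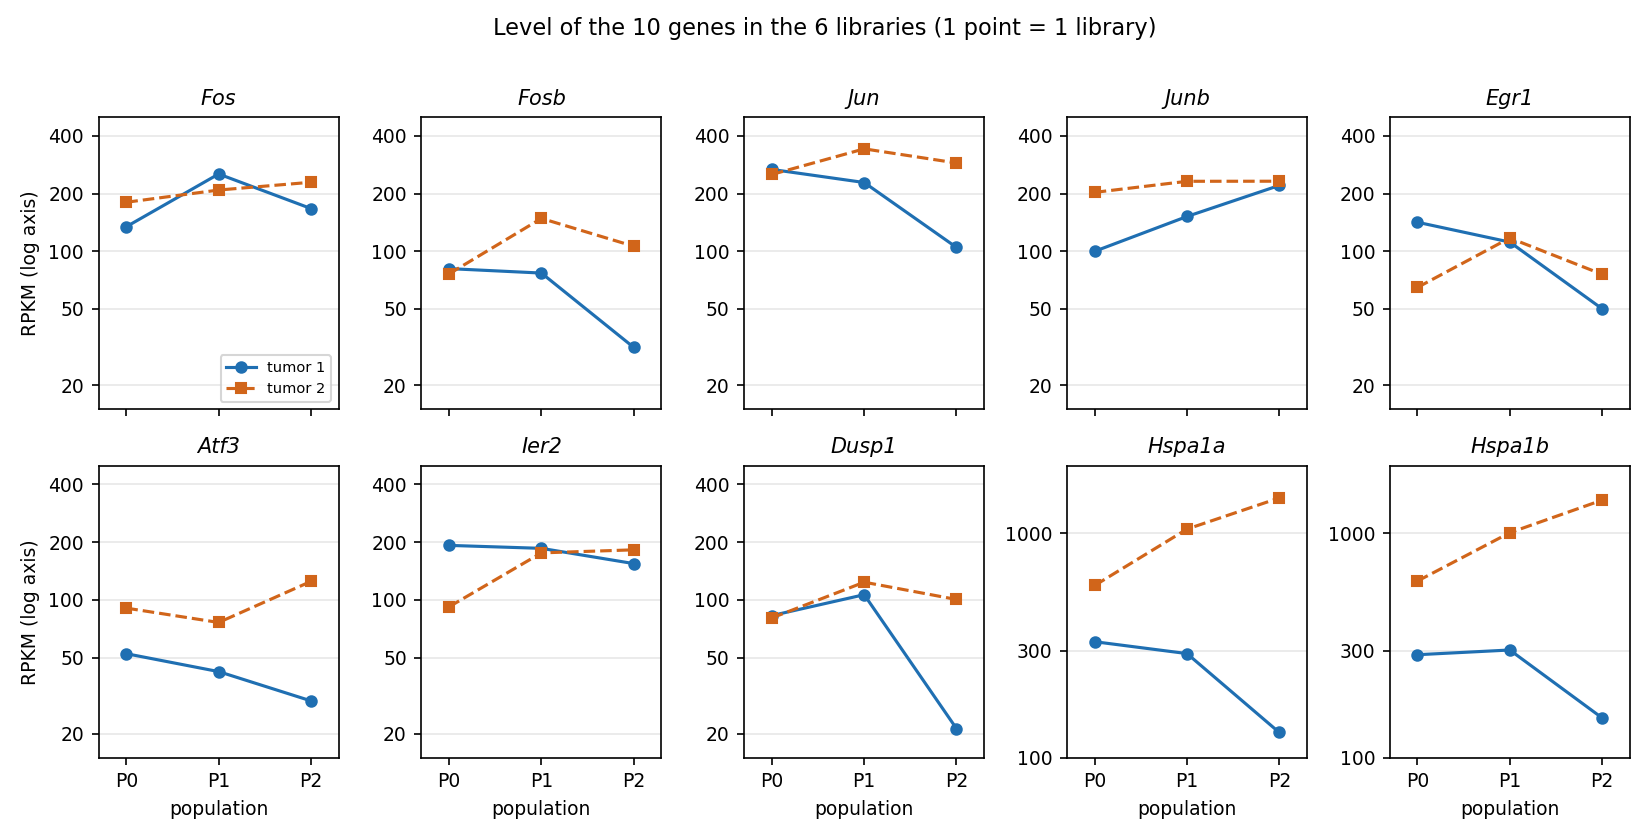
RPKM (log axis, with a higher range for *Hspa1a* and *Hspa1b*) of each gene in P0, P1 and P2, 1 point per library, with lines joining the libraries of a tumor. Blue circles are tumor 1 and orange squares tumor 2. In P2 the tumor 2 value lies above the tumor 1 value for all 10 genes, widest for *Hspa1a* (1438 against 130 RPKM).

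The chaperone genes had the widest range over the 6 libraries, 11.1-fold and 9.33-fold, and next came *Dusp1* with 5.80-fold. Between populations of the same tumor *Dusp1* differed more, by up to 4.99-fold. *Hspa1a* was at 329, 291 and 130 RPKM in P0, P1 and P2 of tumor 1, and at 586, 1045 and 1438 RPKM in tumor 2. *Hspa1b* was at 288, 302 and 151 RPKM in P0, P1 and P2 of tumor 1, and at 613, 1007 and 1406 RPKM in tumor 2. In both genes every tumor 2 library stood above every tumor 1 library, and within P2 the tumors differed 11.1-fold for *Hspa1a* and 9.33-fold for *Hspa1b*. The groups P0, P1 and P2 overlapped for both genes.

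The direction between populations differed between tumors. *Hspa1a* in P2 was 0.394 times its P0 level in tumor 1 (95% interval from the reads 0.385 to 0.404) and 2.45 times that level in tumor 2 (2.42 to 2.49). For *Hspa1b* the same ratios were 0.523 (0.511 to 0.535) and 2.29 (2.26 to 2.32). These are exact binomial intervals, which take the reads as independent, and cover counting error only. In P1 the ratio to P0 of *Hspa1a* was 0.885 in tumor 1 and 1.78 in tumor 2, and that of *Hspa1b* was 1.05 and 1.64. After median-of-ratios scaling, the small difference of *Hspa1b* between P1 and P0 in tumor 1 turned from 0.07 to -0.08 on the log2 scale. With limma without a block, *Hspa1a* had a log2 fold change of -0.02 ± 1.03 (SE, 2 tumors) in P2 against P0. That of P1 against P0 was 0.33 ± 1.03, with adjusted p of 1.00 in each case. With the tumor as a block each SE was 0.52, and limma gave unadjusted p of 0.968 and 0.545. Neither difference stood above the spread between the libraries in either fit.

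*Hspa1a* and *Hspa1b* are near-identical copies, so how the authors' counting shared their reads is uncertain. The ratio of *Hspa1a* to *Hspa1b* stayed between 0.861 and 1.14 in the 6 libraries. Summed, both genes were at 617, 594 and 280 RPKM in P0, P1 and P2 of tumor 1, and at 1199, 2051 and 2844 RPKM in tumor 2. The sum in P2 was thus 0.454 times that of P0 in tumor 1 and 2.37 times that of P0 in tumor 2, which depends little on how reads were shared between these copies. The sum took 0.797% of all reads in P2 of tumor 2 and 0.0786% in P2 of tumor 1.

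Other heat shock genes were measured beside them. *Hspa1l*, a related HSP70 gene beside *Hspa1a*, was at 51.1, 56.4 and 16.1 RPKM in P0, P1 and P2 of tumor 1, and at 94.99, 157 and 232 RPKM in tumor 2, and its log2(RPKM + 1) had a correlation of 0.990 with that of *Hspa1a* over the 6 libraries. Its sequence resembles that of *Hspa1a*, so reads of the more abundant gene may be counted in it, and its exons share 1778 bases with *Gm10501* on the other strand. In P2 against P0, 6 of 26 other heat shock and chaperone genes were lower in tumor 1 and higher in tumor 2. Of all tested genes 24.9% had this pattern. The 6 were *Hspa1l*, *Dnajb1*, *Bag3*, *Ahsa1*, *Dnaja4* and *Hspb1*. On the log2 scale *Dnajb1* differed by -1.11 and 0.63 in tumors 1 and 2, and *Bag3* by -1.12 and 0.41. *Ahsa1* differed by -1.56 and 0.54, *Dnaja4* by -0.68 and 0.58 and *Hspb1* by -0.06 and 0.16. Of the 26, 9 were higher in both tumors and 4 lower in both, beside 24.5% and 22.9% of all tested genes. The other 7 were higher in tumor 1 and lower in tumor 2, beside 20.4%. Of these *Dnaja1* differed by 1.22 and -0.25, *Hspb8* by 0.19 and -0.70, *Dnajb4* by 0.01 and -0.68 and *Hspa4l* by 0.21 and -0.56. *Hspa4* differed by 0.24 and -0.43, *Hspa9* by 0.14 and -0.34 and *Hspa8* by 0.07 and -0.08 on the same log2 scale. The median log2 difference of the 26 was 0.16 in both tumors. The genes that follow were named by their mean change over both tumors, which is small where the tumors differ in direction. The co-chaperone *Stip1* was at 20.02, 54.4 and 48.1 RPKM in P0, P1 and P2 of tumor 1. In tumor 2 it was at 56.8, 64.9 and 65.9 RPKM. *Hspbp1*, which encodes a nucleotide exchange factor of HSP70, was at 8.06, 17.9 and 19.2 RPKM in P0, P1 and P2 of tumor 1, and at 9.81, 9.93 and 13.6 RPKM in tumor 2. *Hspe1*, the mitochondrial co-chaperonin, was at 74.9 RPKM in P0 against 131 in P2 of tumor 1, and at 87.8 against 121 in tumor 2, above P0 in both tumors. *Cacybp*, which encodes a protein that binds calcyclin, at 14.3 and 48.0 RPKM in P0 and P1 of tumor 1 and at 31.0 and 25.8 in tumor 2, and the HSP70 gene *Hspa2*, at 0.516 and 2.74 RPKM in P0 and P1 of tumor 1 and at 2.73 and 6.16 in tumor 2, were named for P1. None of the 26 passed an adjusted p of 0.05 in limma.

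The FOS family genes differed from each other. *Fos* was at 134, 253 and 167 RPKM in P0, P1 and P2 of tumor 1, and at 180, 209 and 229 RPKM in tumor 2. Both P1 libraries lay above both P0 libraries, and it was higher in P1 and in P2 than in P0 within each tumor. The share of all tested genes whose groups separated in this way was not counted. With 2 libraries per group, such separations here and below are a description only. *Fosb*, which encodes another partner of JUN, was at 81.2, 77.0 and 31.5 RPKM in P0, P1 and P2 of tumor 1, and at 76.2, 148 and 106 RPKM in tumor 2. Its P2 library of tumor 1 was the lowest of the 6, while in tumor 2 its P2 level lay above P0. In limma *Fos* in P1 against P0 had a log2 fold change of 0.56 ± 0.33 (SE) with an unadjusted p of 0.126 and an adjusted p of 1.00, and *Fosb* one of 0.44 ± 0.56.

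The JUN family genes also split. *Jun* was at 267, 228 and 105 RPKM in P0, P1 and P2 of tumor 1, and at 251, 342 and 289 RPKM in tumor 2. The 2 P0 libraries were close together, and the P2 libraries lay on either side of them. *Junb*, whose protein is a weaker activator than JUN and can restrain it, was at 99.9, 152 and 220 RPKM in P0, P1 and P2 of tumor 1, and at 203, 232 and 232 RPKM in tumor 2. Both P2 libraries of *Junb* lay above both P0 libraries, with a P2 to P0 ratio of 2.20 in tumor 1 and 1.14 in tumor 2, and limma gave a log2 fold change of 0.66 ± 0.41 (SE) with an unadjusted p of 0.140 and an adjusted p of 0.985. *Junb* was also the only one of the 10 genes that was lower in P1 than in P2 in both tumors, but in tumor 2 by a log2 difference of only 0.002, which median-of-ratios scaling turned to 0.003 in the other direction.

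The zinc finger factor *Egr1* was at 142, 112 and 50.1 RPKM in P0, P1 and P2 of tumor 1, and at 64.8, 117 and 75.8 RPKM in tumor 2. Its P1 libraries were close together and both stood above both P2 libraries, with P1 to P2 ratios of 2.23 and 1.55. In limma the log2 fold change of P1 against P2 was 0.88 ± 0.42 (SE), with an unadjusted p of 0.0687 and an adjusted p of 1.00. *Atf3*, a stress-induced factor of the ATF/CREB family, was at 52.4, 42.2 and 29.7 RPKM in P0, P1 and P2 of tumor 1, and at 90.5, 76.2 and 125 RPKM in tumor 2. It was the only one of the 10 that was lower in P1 than in P0 in both tumors, with ratios of 0.807 and 0.842, and its P2 libraries were its lowest and its highest. *Ier2*, which encodes a nuclear protein of the early response, was at 192, 186 and 155 RPKM in P0, P1 and P2 of tumor 1, and at 92.0, 176 and 182 RPKM in tumor 2. Its range came from the P0 libraries, which were its highest and its lowest.

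*Dusp1* was at 82.8, 106 and 21.3 RPKM in P0, P1 and P2 of tumor 1, and at 80.5, 124 and 100 RPKM in tumor 2. Both P1 libraries lay above both P0 and both P2 libraries, again as a description only. Among the genes named at the start, groups otherwise separated only for *Fos* in P1 against P0, *Junb* in P2 against P0 and *Egr1* in P1 against P2. In every other comparison of those genes the groups overlapped. The P1 to P0 ratio of *Dusp1* was 1.28 in tumor 1 and 1.54 in tumor 2. Its P1 to P2 ratio was 4.99 (95% exact binomial interval from the reads 4.67 to 5.33) and 1.23 (1.18 to 1.28). The P2 library of tumor 1, with 984 reads of *Dusp1*, was the lowest of all. In limma P1 against P2 had a log2 fold change of 1.28 ± 0.61 (SE), with an unadjusted p of 0.0680, the smallest of the 10 genes in any comparison, and an adjusted p of 1.00. With the tumor as a block the unadjusted p was 0.0300, and with limma voom on the recovered reads 0.00593, with adjusted p of 0.949 and 0.871.

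**Figure D2:**
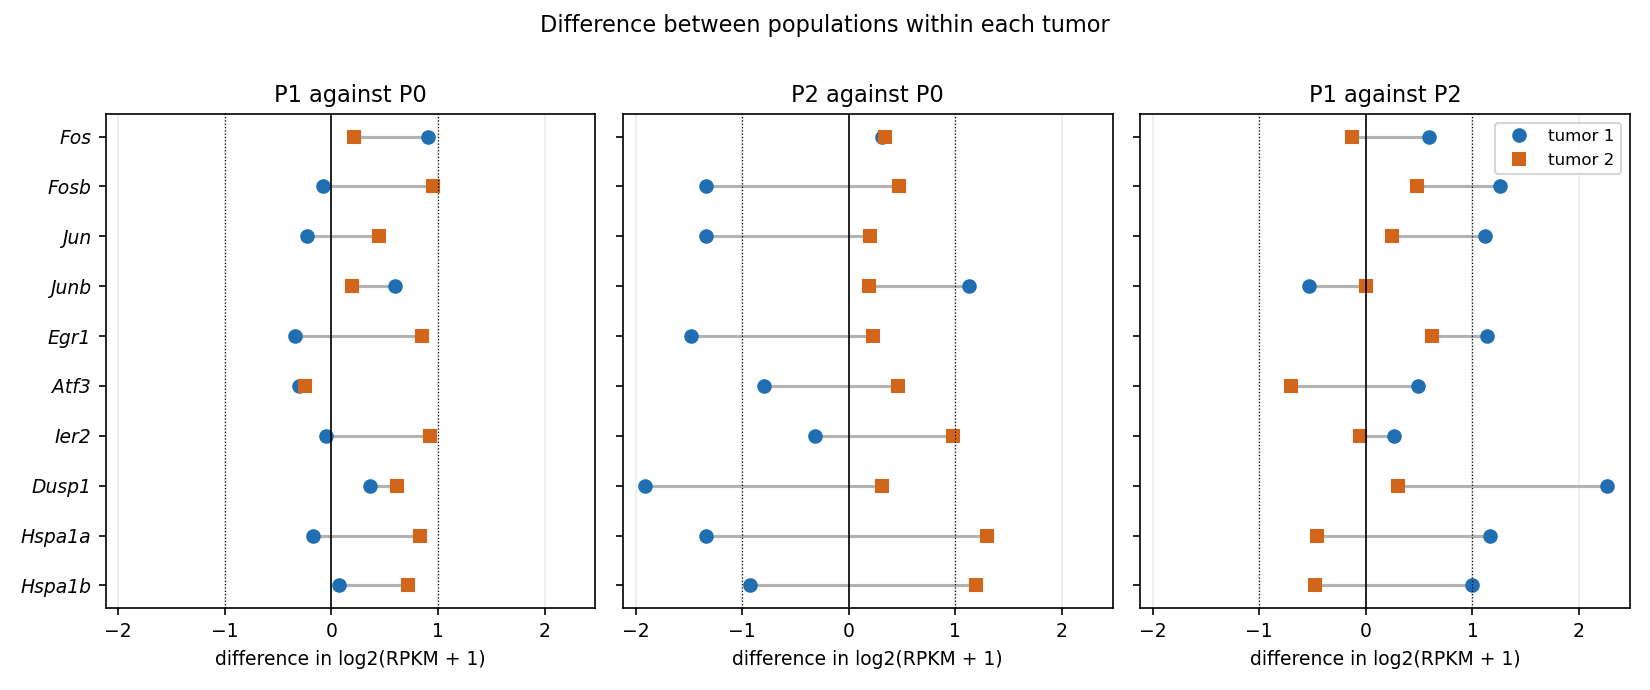
Difference in log2(RPKM + 1) between populations within tumor 1 (blue circles) and tumor 2 (orange squares) for each gene, with dotted lines at a 2-fold difference in either direction. A grey line joins the tumors, and in P2 against P0 it crosses 0 for 8 of the 10 genes.

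For P1 against P0, most of the 10 genes were higher in P1 in tumor 2 but not in tumor 1. In tumor 2, 9 of 10 were higher in P1, with a median log2 difference of 0.66, where 52.8% of all tested genes were higher and their median was 0.04. In tumor 1, 4 of 10 were higher and the median was -0.06, where 57.3% of all tested genes were higher and their median was 0.15. *Fos*, *Junb*, *Dusp1* and *Hspa1b* were higher in both tumors, *Atf3* was lower in both, and the remaining 5 were lower in tumor 1 and higher in tumor 2. After median-of-ratios scaling, which moved the median of all tested genes in tumor 1 from 0.15 to 0.02, *Hspa1b* joined them, which made 6. None of the 10 was at least 2-fold apart in the same direction in both tumors, beside 1.67% of all tested genes that were 2-fold higher and 0.272% that were 2-fold lower. None was at least 1.5-fold higher in one tumor and 1.5-fold lower in the other, as 5.5% of all tested genes were. limma called 0 of the 10 and 0.0% of the 12512 genes at an adjusted p under 0.05, and 1.89% of all genes, but none of the 10, had an unadjusted p under 0.05. With the block limma called 0 genes in all. With limma voom on the recovered reads it called 7 and with voom and the block 4, none of them among the 10. In the last of these fits *Fos* had an unadjusted p of 0.0350 and an adjusted p of 0.781.

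For P2 against P0, the direction differed between tumors. In tumor 1, 8 of the 10 genes were lower in P2, with a median log2 difference over the 10 of -1.13. That of all tested genes was 0.00 there, and 45.0% of them were higher. In tumor 2 all 10 were higher in P2, with a median of 0.40, where that of all tested genes was 0.05 and 53.3% of them were higher. *Fos* and *Junb* were the genes that were higher in both tumors, and the other 8 were lower in tumor 1 and higher in tumor 2, a pattern that 24.9% of all tested genes had. These counts were the same after median-of-ratios scaling. In tumor 1 *Dusp1*, at a log2 difference of -1.91, lay above 7.06% of all tested genes, and *Egr1*, *Jun*, *Fosb* and *Hspa1a* lay above 10.9% to 12.7% of them. In tumor 2 *Hspa1a*, *Hspa1b* and *Ier2* lay above 97.1%, 96.2% and 93.6% of all tested genes.

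**Figure D3:**
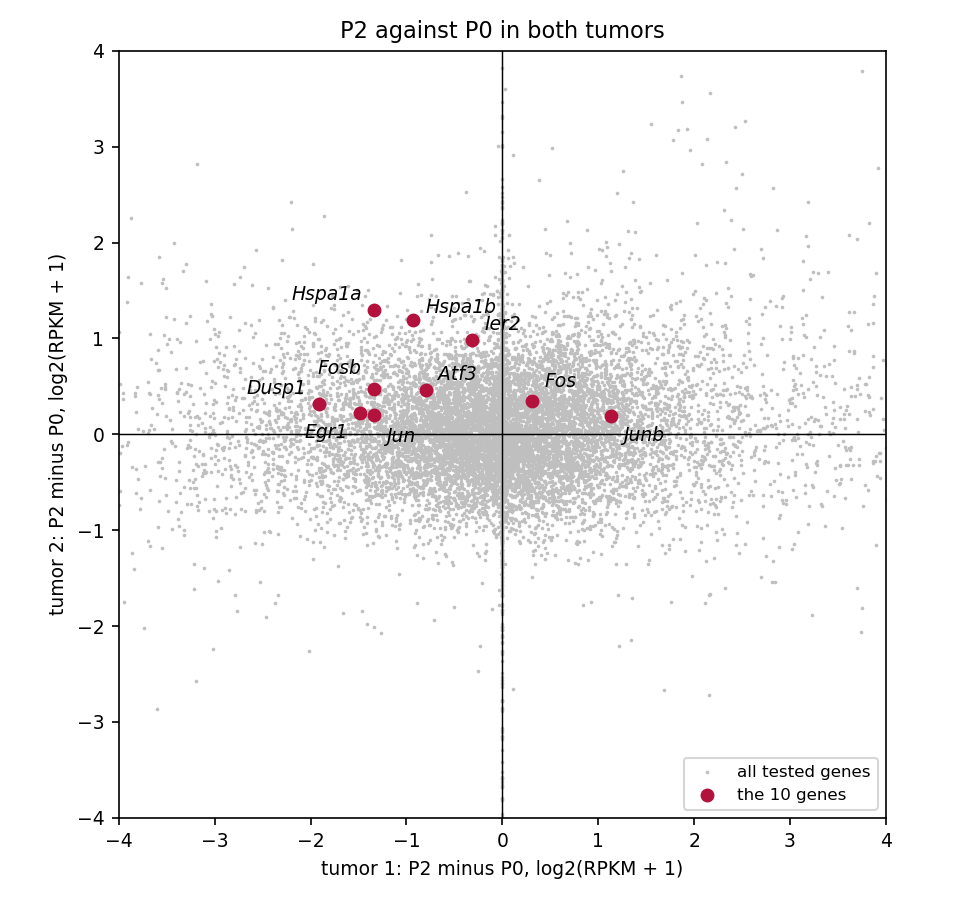
P2 minus P0 in log2(RPKM + 1) in tumor 1 (horizontal axis) against tumor 2 (vertical axis), with all tested genes in grey and the 10 genes in red. The upper left area, lower in tumor 1 and higher in tumor 2, holds 8 of the 10, and 198 genes lie beyond the axes at 4.

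None of the 10 was at least 2-fold apart in the same direction in both tumors in P2 against P0, beside 1.7% of all tested genes that were 2-fold higher and 0.607% that were 2-fold lower. *Hspa1a* and *Hspa1b* were at least 1.5-fold lower in tumor 1 and at least 1.5-fold higher in tumor 2, and 7.05% of all tested genes were that far apart in opposite directions. limma called 0 of the 10 and 0.0% of all genes, and 3.91% of all genes, but none of the 10, had an unadjusted p under 0.05. With the block it called 3 genes, with voom 1 and with voom and the block 6, none of them among the 10. The smallest unadjusted p of the 10, for *Junb*, was 0.140 in limma and 0.0321 with voom and the block, with adjusted p of 0.985 and 0.738. With 2 tumors an exact permutation test over tumors could not fall below 0.5, so it was not used.

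P1 against P2 uses the same libraries as the comparisons above and adds no new samples. *Fosb*, *Jun*, *Egr1* and *Dusp1* were higher in P1 than in P2 in both tumors, with ratios of 2.44, 2.18, 2.23 and 4.99 in tumor 1 and of 1.397, 1.18, 1.55 and 1.23 in tumor 2. *Junb* was lower in P1 in both, by almost nothing in tumor 2, and *Fos*, *Atf3*, *Ier2*, *Hspa1a* and *Hspa1b* were higher in tumor 1 and lower in tumor 2. The median log2 difference of the 10 was 1.06 in tumor 1 and -0.03 in tumor 2, where those of all tested genes were 0.17 and 0.00. None of the 10 was at least 2-fold apart in the same direction in both tumors, beside 1.32% of all tested genes that were higher and 0.975% that were lower, and none was 1.5-fold apart in opposite directions, as 4.94% of all were. limma called 0 of the 10 and 0.0% of all genes, and 2.49% of all genes, but none of the 10, had an unadjusted p under 0.05. With the block it called 0 genes, with voom 7 and with voom and the block 10, none of them among the 10 genes described here. An unadjusted p under 0.05 was found for 1 of the 10 with the block, for 3 with voom and for 4 with voom and the block. Of the 12512 tested genes, 562, 462 and 663 had an unadjusted p under 0.05 in these fits, in the same order.

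The tumors can also be compared within a population, where no test was possible with 1 library each. In P0, 5 of the 10 genes were higher in tumor 2 than in tumor 1, beside 57.4% of all tested genes. In P1 it was 8 of 10, beside 48.0%, and in P2 10 of 10, beside 58.7%. The 10 genes had median log2 differences between tumors of 0.19, 0.59 and 1.59 in the 3 populations, in the same order, where all tested genes had 0.17, -0.03 and 0.21. In P2 the ratio of tumor 2 to tumor 1 ran from 1.05 for *Junb* and 1.18 for *Ier2* to 4.71 for *Dusp1*, 9.33 for *Hspa1b* and 11.1 for *Hspa1a*. P2 of tumor 1 was also the library with the most genes without reads, 3904, and the part of this in the result was not tested. The reads of the 10 genes made up 0.434% and 0.588% of all reads in P0 of tumors 1 and 2, 0.441% and 0.928% in P1 and 0.248% and 1.11% in P2.

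Among themselves the 10 genes formed groups of like pattern over the 6 libraries, which share tumors and depth. Of the 45 pairs, 9 had a Pearson correlation of log2(RPKM + 1) above 0.8, and 7 were below 0. *Hspa1a* and *Hspa1b* had the highest, 0.995, followed by *Fosb* with *Jun* at 0.974, *Jun* with *Dusp1* at 0.958, and *Atf3* with *Hspa1a* at 0.947. *Junb* and *Egr1* had the lowest, -0.65. *Fos* stayed between -0.02 and 0.50 with the other 9.

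Among the 6855 tested genes whose SD over the libraries was at least 0.5, genes among the closest to *Fos* in pattern were *Arfgap1* (correlation 0.993), *Sema4a* (0.987), *Ndufb10* (0.986) and *Mus81* (0.983). Closest to *Hspa1a* were *Stard3* (0.997), *Hspa1b*, *Pccb* (0.993), *Mknk2* (0.990) and *Hspa1l*. Closest to *Hspa1b* were *Stard3* (0.997), *Hspa1a*, *Pqlc1* (0.994), *Hist1h2bc* (0.993) and *Mknk2* (0.988). *Mknk2*, which encodes a kinase that MAP kinases activate, was at 15.3, 13.96 and 8.48 RPKM in P0, P1 and P2 of tumor 1, and at 25.4, 33.0 and 35.2 RPKM in tumor 2, the same order of libraries as *Hspa1a*. These correlations over 6 libraries were the highest among the genes compared and are given as a description.

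The other immediate early genes were spread over all directions. Of 46 listed, 45 were tested. In P2 against P0 15 of the 45 were lower in tumor 1 and higher in tumor 2, 12 were higher in both and 11 lower in both, beside 24.9%, 24.5% and 22.9% of all tested genes, and their medians were -0.11 in tumor 1 and 0.14 in tumor 2. In P1 against P0 17 of 45 were lower in tumor 1 and higher in tumor 2, 12 were higher in both and 8 lower in both, beside 21.8%, 29.2% and 17.6% of all tested genes. *Csrnp1*, which encodes a nuclear factor that AXIN1 induces, was at 52.2, 31.5 and 7.58 RPKM in P0, P1 and P2 of tumor 1, and at 31.6, 40.7 and 45.2 RPKM in tumor 2, so that in P2 against P0 it was lower in tumor 1 and higher in tumor 2, as *Dusp1* and *Jun* were. *Id1*, an inhibitor of basic helix-loop-helix factors, had another pattern. It had no reads in P0 of tumor 1, where P1 and P2 were at 5.596 and 7.97 RPKM, and was at 4.29, 7.09 and 11.5 RPKM in P0, P1 and P2 of tumor 2. *Ier5l* was at 5.30, 10.95 and 21.4 RPKM in P0, P1 and P2 of tumor 1, and at 12.3, 24.8 and 24.3 RPKM in tumor 2, above P0 in both tumors for both populations. *Gadd45a*, a growth arrest and DNA damage gene, was at 25.4 RPKM in P0 against 78.2 in P1 of tumor 1, and at 95.7 against 103 in tumor 2. *Id1* and *Ier5l* had unadjusted p of 0.0271 and 0.0350 and adjusted p of 0.985 in limma for P2 against P0, and none of the 45 passed an adjusted p of 0.05 in either comparison.

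The partners and regulators of AP-1 were measured beside its subunits. Of 13 tested AP-1 and bZIP partners, 6 were higher than P0 in both tumors in P2 and 3 were lower in both, beside 24.5% and 22.9% of all tested genes. *Fosl1*, which encodes the FOS-related subunit FRA1, was at 377, 115 and 187 RPKM in P0, P1 and P2 of tumor 1, and at 140, 183 and 166 RPKM in tumor 2, and P0 of tumor 1 held its highest value. *Jund*, the JUN subunit with the steadiest expression in many tissues, was at 49.5, 76.4 and 87.1 RPKM in P0, P1 and P2 of tumor 1, and at 67.3, 92.1 and 98.9 RPKM in tumor 2. Every P1 and P2 library of *Jund* lay above both P0 libraries, again as a description only. In P2 limma gave a log2 fold change of 0.68 ± 0.32 (SE) with an unadjusted p of 0.0639 and an adjusted p of 0.985. *Jdp2*, a repressor that pairs with JUN, was at 120, 66.3 and 154 RPKM in P0, P1 and P2 of tumor 1, and at 37.9, 35.7 and 85.0 RPKM in tumor 2. The small MAF gene *Mafg* was at 71.5 RPKM in P0 against 19.7 in P2 of tumor 1, and at 28.5 against 28.0 in tumor 2. *Atf2*, at 4.35 and 9.20 RPKM in P0 and P1 of tumor 1 and at 9.50 and 10.6 in tumor 2, and *Maf*, at 0.0455 and 1.15 RPKM in P0 and P1 of tumor 1 and at 0.353 and 2.80 in tumor 2, were the other named partners. None of the 13 was called in limma.

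Feedback regulators of MAP kinases gave no common direction. Of 15 tested, 4 were higher in both tumors and 0 lower in both in P1 against P0, and 4 were higher and 5 lower in P2 against P0. Of all tested genes 29.2% were higher and 17.6% lower in both tumors in P1, and 24.5% and 22.9% in P2. *Dusp6*, an ERK phosphatase, was at 31.0, 65.6 and 15.5 RPKM in P0, P1 and P2 of tumor 1, and at 80.2, 111 and 92.5 RPKM in tumor 2, so that P2 of tumor 1 was its lowest library as for *Dusp1*. *Dusp5*, a nuclear ERK phosphatase, was at 15.4, 35.3 and 54.1 RPKM in P0, P1 and P2 of tumor 1, and at 56.5, 66.1 and 79.3 RPKM in tumor 2, above P0 in both tumors. *Dusp8*, which acts on JNK and p38, was at 18.6 RPKM in P0 against 6.20 in P2 of tumor 1, and at 15.8 against 11.6 in tumor 2, below P0 in both. *Spred2*, a RAS pathway inhibitor, was at 9.45 RPKM in P0 against 2.01 in P2 of tumor 1, and at 4.58 against 4.08 in tumor 2. *Dusp9* was low, at 2.63 RPKM in P0 and without reads in P1 of tumor 1, and at 0.590 and 2.06 RPKM in tumor 2.

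Of 18 tested upstream kinases and factors, 5 were higher in both tumors and 0 lower in both in P1 against P0, and 7 were higher and 4 lower in P2, with the same shares of all tested genes beside them. *Hsf1*, the heat shock factor, was at 10.5, 30.2 and 20.5 RPKM in P0, P1 and P2 of tumor 1, and at 17.8, 19.3 and 30.2 RPKM in tumor 2, above P0 in both tumors for both populations. Its transcript level did not share the opposite directions of *Hspa1a* and *Hspa1b* in P2, and the activity of the HSF1 protein was not measured. *Hsf2*, a related factor, was at 3.73, 13.5 and 9.83 RPKM in P0, P1 and P2 of tumor 1, and at 14.3, 11.96 and 6.65 RPKM in tumor 2. *Elk1*, a partner of serum response factor, was at 3.18 RPKM in P0 and without reads in P2 of tumor 1, and at 4.43 and 2.90 RPKM in tumor 2. *Mkl2*, a further coactivator of that factor, was at 9.04 RPKM in P0 against 4.72 in P2 of tumor 1, and at 16.0 against 12.3 in tumor 2, and *Mapk9*, which encodes a JNK, was at 8.25 RPKM in P0 against 13.3 in P1 of tumor 1, and at 9.49 against 10.7 in tumor 2. None of the 18 passed an adjusted p of 0.05 in limma.

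**Figure D4:**
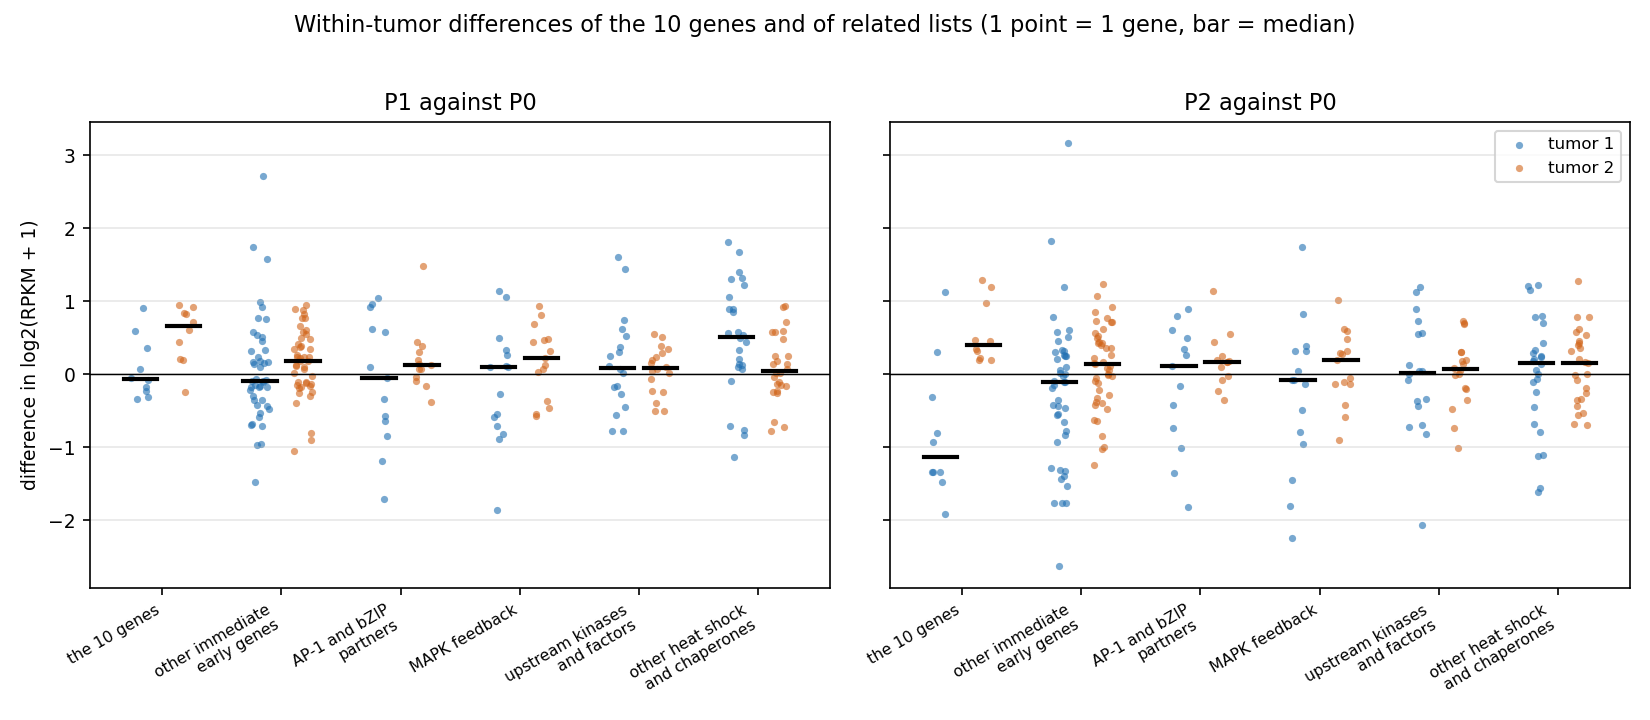
Within-tumor difference in log2(RPKM + 1) from P0 of P1 (left) and P2 (right) for the tested genes of each list, 1 point per gene, blue for tumor 1 and orange for tumor 2, with a bar at the median. For P2 the 10 genes have medians of -1.13 and 0.40, and the other immediate early genes of -0.11 and 0.14.

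Genes in common use as references also differed between the libraries. *Actb*, which encodes actin, was at 5642, 3570 and 5598 RPKM in P0, P1 and P2 of tumor 1, and at 4950, 3717 and 4252 RPKM in tumor 2. *Gapdh*, a glycolytic enzyme gene, was at 417, 577 and 637 RPKM in P0, P1 and P2 of tumor 1, and at 352, 570 and 595 RPKM in tumor 2. For P2 against P0 *Actb* differed by -0.01 and -0.22 on the log2 scale in tumors 1 and 2 and *Gapdh* by 0.61 and 0.76, the same sign in both tumors. Of 12 listed reference genes, 6 were higher in both tumors and 4 lower in both in P2, beside 24.5% and 22.9% of all tested genes. *Ywhaz*, which encodes a 14-3-3 protein, differed by 0.78 in tumor 1 and -0.59 in tumor 2, at least 1.5-fold each in opposite directions, and *Sdha*, a mitochondrial enzyme gene, by 1.25 and 0.18. The opposite differences of *Hspa1a* and *Hspa1b* were -1.34 and -0.93 in tumor 1 and 1.29 and 1.20 in tumor 2. They were larger in size than those of *Actb*, *Gapdh* and *Ywhaz* in each tumor. That of *Hspa1b* in tumor 1 was smaller in size than those of *Sdha*, *Tbp* (-1.154) and *Gusb* (-1.152). Some genes overlap another gene on the other strand in GENCODE vM21, and whether reads were counted by strand is not given in the sources used here. Exons of *Hspa1a* share 564 bases with *Gm20481*, those of *Jun* share 232 with *Junos*, those of *Junb* 173 with *Prdx2* and those of *Dusp1* 11 with *Ergic1*. Those of *Fos*, *Fosb*, *Egr1*, *Atf3*, *Ier2* and *Hspa1b* share 0 bases with another gene.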

How the data were processed

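Poly(A) RNA of populations sorted from 2 tumors was sequenced (PrepX libraries, HiSeq) and aligned by the standard Illumina pipeline. The aligner version, genome build, annotation and strand setting are not given in the sources used here. The authors deposited RPKM values for 14897 genes, 1 column per library, which were used as they stand. The authors' own columns on P1 against P0 (group means, fold change, log2 value, p-value and adjusted p-value) were not used. Whole reads were recovered from the RPKM for all 14897 genes (100.0% of values within 0.01 reads), although a gene whose reads share a common factor can come out at a fraction of them.

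The main test was limma (version 3.58.1, R version 4.3.3) with its trend option on log2(RPKM + 1), a pseudocount that understates differences of low genes. It covered 12512 genes that have a symbol and reached 1 RPKM in 2 or more libraries, used the 6 libraries in a single model without a block, and adjusted p by Benjamini-Hochberg over all of these genes with a threshold of 0.05. The tumor number pairs the libraries, since each tumor gave all 3 populations, and deviations from the group means correlated at 0.185, 0.212 and 0.242 between populations. The labels do not give the mice, so p-values measure the spread between these libraries. Alternatives were a pseudocount of 0.1, no filter, the tumor as replicate block, median-of-ratios scaling, limma voom on recovered reads with and without the block, and leaving out each library.

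The 10 genes, the lists, the tests and the alternatives were chosen with earlier results of these data known. From each related list, the 3 tested genes with the largest mean change in P1 and in P2 against P0 were named, with *Actb* and *Gapdh*. The 5 genes of highest correlation were named for *Fos*, *Hspa1a* and *Hspa1b*, except 1 that is not reported here. The full values of *Mknk2* and *Hspa1l* and the overlapping genes were chosen after their values were seen. So were the values of *Ywhaz*, *Sdha*, *Tbp*, *Gusb*, *S100a8*, *Csf3r*, *Kit*, *Cpa3*, *Dnajb1*, *Bag3*, *Ahsa1*, *Dnaja4* and *Hspb1*. The same holds for *Dnaja1*, *Hspb8*, *Dnajb4*, *Hspa4l*, *Hspa4*, *Hspa9* and *Hspa8*. Promoters came from RefSeq (GRCm38.p6). Scripts ran in Python (3.11.15) with pandas (2.3.3), numpy (2.4.6), scipy (1.17.1) and matplotlib (3.10.9).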

Additional observations from a re-analysis of the deposited data

Results flagged for a closer look

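*Hspa1a* and *Hspa1b* stood out because the P2 against P0 difference went in opposite directions in the tumors by at least 1.5-fold each. On the log2(RPKM + 1) scale *Hspa1a* differed by -1.34 in tumor 1 and by 1.29 in tumor 2, and *Hspa1b* by -0.93 and 1.20. With 1 library per population and tumor the difference between tumors was not tested. Among all tested genes, 7.05% met the same rule in this comparison, and these near-identical copies do not count as independent genes. No other of the 10 genes met it in P2 against P0, and none did in P1 against P0 or P1 against P2.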

How the results depend on the processing

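Of the 10 genes none passed the threshold in any of the 3 comparisons under any alternative run, with adjusted p from limma of 0.0593 to 1.00. The lowest was that of *Dusp1* in P1 against P2 without tumor 2 of P2, at a log2 fold change of 2.37, where the lone P2 library was assumed to vary like the other groups. The pseudocount and the scaling changed no sign of a fitted fold change of the 10. Dropping the filter or adding the replicate block to limma leaves each of these fold changes as it was by design, so neither could change a sign. With voom on recovered reads and the tumor as replicate block, *Hspa1a* in P2 against P0 turned from -0.02 to 0.20. Only 9 of the 30 fold changes of the 10 genes kept their sign under all 12 alternatives run. Leaving out the tumor 1 library turned the sign of 9 when it was that of P2, of 3 when that of P1 and of 4 when that of P0, and leaving out the tumor 2 library turned 2, 6 and 6. For the fold changes that turned, the lowest and highest values on the log2 scale were, in P1 against P0, -0.69 to 0.14 for *Atf3*, -0.31 to 0.81 for *Egr1*, -0.031 to 0.91 for *Fosb*, -0.59 to 1.25 for *Hspa1a*, -0.47 to 1.26 for *Hspa1b*, -0.090 to 0.97 for *Ier2*, -0.18 to 0.40 for *Jun* and -0.11 to 0.90 for *Junb*. In P2 against P0 they were -1.19 to 0.85 for *Atf3*, -1.89 to 0.30 for *Dusp1*, -1.29 to 0.43 for *Fosb*, -1.75 to 1.71 for *Hspa1a*, -1.47 to 1.74 for *Hspa1b*, -0.20 to 0.86 for *Ier2* and -1.30 to 0.15 for *Jun*. In P1 against P2 they were -1.12 to 0.91 for *Atf3*, -1.38 to 2.08 for *Hspa1a*, -1.35 to 1.87 for *Hspa1b*, -0.013 to 0.22 for *Ier2*, -0.046 to 1.41 for *Jun* and -0.57 to 0.035 for *Junb*.

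Over all genes limma called 0 in each comparison, and 237 genes had an unadjusted p under 0.05 in P1 against P0, 489 in P2 against P0 and 312 in P1 against P2. In this order, the replicate block, which pairs libraries by tumor, gave 0, 3 and 0 calls, voom gave 7, 1 and 7, and voom with the block gave 4, 6 and 10. A pseudocount of 0.1 gave 2 calls in P2 against P0. Leaving out 1 library gave 0 to 37 calls in P2 against P0 and 0 to 33 in P1 against P2, the highest without tumor 2 of P2. The pseudocount of 0.1 raised the genes at least 2-fold higher in both tumors from 209 to 456, from 213 to 350 and from 165 to 335, and those lower from 34 to 114, from 76 to 188 and from 122 to 217. The cause of these differences was not tested. With 1 library per population and tumor, precision is limited by the number of tumors, and intervals from reads cover counting error only.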
